A study of Mus musculus with 16 samples.

Results

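Among the 6 leukemia arrays of Pax5+/- mice, the level of Trim12a fell into a low class of 3 arrays and a high class of 3 arrays, and these 6 of the series' 16 arrays were compared across all genes. Each array held total RNA from the total bone marrow of 1 mouse with B cell precursor leukemia. An array was low where the Trim12a probe set read under log2 7 (arrays 1, 3 and 5) and high where it read over 7 (arrays 2, 4 and 6). The classes were chosen by the measured level of Trim12a itself, so its values are given as a description and were not tested. All 6 mice lacked 1 functional allele of Pax5, which encodes a master regulator of B cell identity, and had been kept in a conventional facility and exposed to common pathogens. The other 10 arrays held 6 leukemias of Bank1+/- + Pax5+/- mice (Bank1/Pax5 leukemia), kept in the same way, and 4 wild-type (WT) samples, which the series describes as pro-B and pre-B cells of bone marrow. The series' design text names 3 WT mice where 4 WT arrays carry labels. One label of the WT arrays calls their cells leukemic, against their title, source and description. The sources used here do not give strain, age or sex of the mice, or batches of the arrays. The labels call each array a biological replicate of its own mouse, so the spread below is between mice.

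Trim12a encodes a member of the tripartite motif (TRIM) family, proteins with a RING domain that can attach ubiquitin to other proteins and that take part in the defence of cells against viruses. On mouse chromosome 7 it lies in a cluster of TRIM genes that arose by duplication, among them Trim5, Trim12c, Trim30a, Trim30d and Trim34a, set between large groups of olfactory receptor genes. Genes of this kind differ between inbred mouse strains in sequence and in number of copies. Stretches of chromosome that pass together from a parental strain, called haplotypes, carry such differences in blocks, so genes that differ with a haplotype lie near each other. The comparison therefore asked which genes separated the low from the high class, and whether they lay side by side on a chromosome.

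The classes stood well apart in Trim12a. The log2 intensity was 6.09, 6.04 and 6.10 on arrays 1, 3 and 5, and 8.71, 7.99 and 8.81 on arrays 2, 4 and 6. The highest low array (6.10) and the lowest high array (7.99) were 1.89 log2 apart, with nothing between them. All 3 low values lay under 6.96, the median of all named probe sets, so Trim12a was dim there, while the high arrays were above it. In Bank1/Pax5 leukemia Trim12a read from 8.93 to 10.65 with a median of 9.48 (n = 6), and in WT from 10.07 to 10.26 (n = 4). Every array outside Pax5 leukemia was thus above the threshold of 7, and the low level was seen in 3 leukemias of a single genotype. Among the 19937 other genes, 1 had a wider gap between the nearest low and high values than Trim12a.

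The stretches of 250 bases before the start of Trim12a and of 4 further genes on which the results turn are given here in the reference strain's sequence, since a difference between haplotypes could lie in or near them. The sequences are RefSeq's, build GRCm38.p6, and run 5′ to 3′ along the gene's strand. Capitals mark the core of the element through which interferon acts on its target genes, searched as GAAA, any 2 bases and GAAA again on either strand. Overlapping matches were allowed. RefSeq's table matched 7 of the 8 genes looked for.

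Trim12a (chr7:104315496-104315745, minus strand): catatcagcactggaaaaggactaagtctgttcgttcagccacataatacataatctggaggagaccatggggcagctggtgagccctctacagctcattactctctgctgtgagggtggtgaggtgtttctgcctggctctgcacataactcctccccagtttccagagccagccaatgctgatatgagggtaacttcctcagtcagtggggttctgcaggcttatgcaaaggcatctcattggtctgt
Trim34a (chr7:104244207-104244456, plus strand): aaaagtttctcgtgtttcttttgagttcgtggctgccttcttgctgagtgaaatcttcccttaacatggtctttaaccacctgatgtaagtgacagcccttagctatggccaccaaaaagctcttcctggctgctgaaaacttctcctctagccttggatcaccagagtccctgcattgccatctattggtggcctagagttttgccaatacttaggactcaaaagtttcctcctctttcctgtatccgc
Trim30d (chr7:104507850-104508099, minus strand): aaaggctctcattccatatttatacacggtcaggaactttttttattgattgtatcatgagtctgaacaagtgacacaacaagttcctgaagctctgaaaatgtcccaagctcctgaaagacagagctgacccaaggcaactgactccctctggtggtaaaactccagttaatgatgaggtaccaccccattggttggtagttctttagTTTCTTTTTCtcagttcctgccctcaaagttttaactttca
Gm1966 (chr7:106644646-106644895, minus strand): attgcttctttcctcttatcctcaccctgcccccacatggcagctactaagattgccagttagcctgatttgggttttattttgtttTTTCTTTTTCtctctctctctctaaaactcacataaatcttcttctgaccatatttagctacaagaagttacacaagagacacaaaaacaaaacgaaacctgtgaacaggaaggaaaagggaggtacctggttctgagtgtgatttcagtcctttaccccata
Ccnb1ip1 (chr14:50795729-50795978, minus strand): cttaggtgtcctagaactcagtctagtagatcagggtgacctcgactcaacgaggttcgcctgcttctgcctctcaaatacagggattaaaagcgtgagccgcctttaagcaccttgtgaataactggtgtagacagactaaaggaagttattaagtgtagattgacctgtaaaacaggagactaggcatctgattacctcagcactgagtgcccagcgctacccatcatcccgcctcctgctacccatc

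The core was found once in Trim30d, 31 bases from the gene's start, and once in Gm1966, 153 bases from it. It was not in these windows of Trim12a, Trim34a, Trim68, Ccnb1ip1 or Pnp. Of all 32851 mouse promoter windows of this length, 978 held it, or 2.98%. A match describes the letters only. The sequences of the 6 mice were not measured, and whether any of them differed from the reference was not tested.

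Among the TRIM genes in and near the cluster, no gene passed the test, as 0.00502% of all genes did, and the cluster did not move as a whole. Trim30d was lower in the low class, as Trim12a was, while Trim34a and Trim68 were higher there, and each of these 3 genes separated the classes without overlap. Trim30a, Trim21, Trim6 and Trim12c overlapped between the classes. Of the 7 measured TRIM genes in and near the cluster, then, 2 were higher and 1 was lower in the low class without overlap. Over all genes, 9.18% did not overlap, in either direction. The median difference of the 7 was 0.30 log2, against 0.03 over all genes. An unadjusted p under 0.05 in limma was reached by 4 of the 7, and by 5.08% of all genes. Differences here are low minus high on the log2 scale, SE is limma's moderated standard error, and adjusted p-values are limma's after the Benjamini-Hochberg procedure over all 19937 genes.

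Trim30d, a copy of the interferon-inducible Trim30 genes, read 5.44, 5.21 and 5.65 on the low arrays 1, 3 and 5. On the high arrays 2, 4 and 6 it read 7.65, 5.98 and 7.66. The low arrays were all dim. Array 4, the high array with the least Trim12a, also had the least Trim30d of its class and was dim as well. Only arrays 2 and 6 thus read above the median of named probe sets. The difference was -1.66 (SE 0.48, n = 3 and 3), with an adjusted p of 0.956. In Bank1/Pax5 leukemia Trim30d read 7.39 to 11.12 and in WT 8.56 to 8.77, so that all 10 of these arrays lay on the high side of the midpoint between the Pax5 classes, as for Trim12a. Trim30d was the only gene among the 6 separated measurable neighbours described below for which all 6 Bank1/Pax5 arrays did so.

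Trim34a, another TRIM protein with a part in antiviral defence, went the other way. It read 8.41, 8.55 and 9.54 on the low arrays 1, 3 and 5 against 7.62, 7.95 and 7.94 on the high arrays 2, 4 and 6. Array 5 stood above its class mates, and the classes were separated by 0.46. The difference was 1.00, a 2-fold difference (SE 0.32, adjusted p = 0.956), and it was 0.65 without array 5. All 4 WT arrays (7.62 to 7.66) and 4 of the 6 Bank1/Pax5 arrays lay with the high class. Trim68, a TRIM ubiquitin ligase outside the 20 tested genes on either side of Trim12a, read 8.28, 8.78 and 8.33 on the low arrays and 7.58, 7.96 and 7.49 on the high ones. Its difference was 0.79 (SE 0.19, adjusted p = 0.956), with a gap of 0.32.

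The remaining TRIM genes showed no separation. Trim12c, the copy closest to Trim12a by name, read 8.06, 8.36 and 7.70 in the low class and 7.44, 7.15 and 7.79 in the high class, and the classes overlapped by 0.09. Trim30a, a regulator of inflammatory signalling, read 11.41, 11.09 and 10.33 against 11.30, 10.28 and 11.44. Its difference of -0.06 (SE 0.41) changed sign without array 2, 5 or 6 or with Y-linked expression as a covariate. That covariate mainly sets array 2 apart, so it comes close to leaving array 2 out. Trim21, an antibody receptor inside cells and a ubiquitin ligase, differed by -0.05 (SE 0.15), a sign that turned without array 3 or 5. The probe sets that name several members could not be assigned to one gene. The one naming Trim5, Trim12c and Trim12a together overlapped between the classes, with means of 8.15 in the low class and 8.75 in the high class, and the one naming Trim5 and Trim12c overlapped as well, with means of 9.41 and 9.11. Because the copies are alike in sequence, RNA of one copy can bind the probes of another, and the share of each in these values was not tested.

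**Figure D1:**
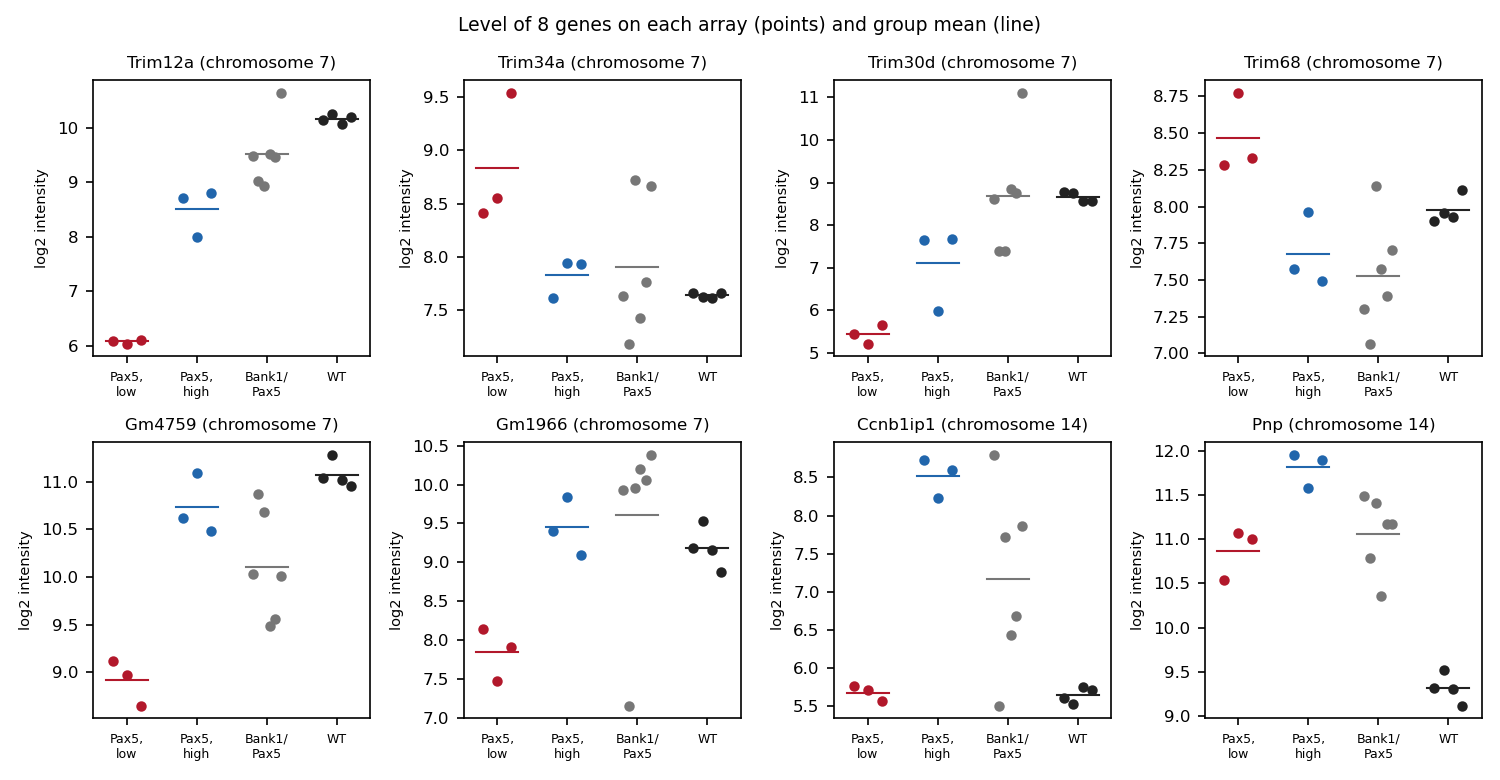
Log2 intensity (y axes, each with its own range) of 8 genes on the 16 arrays, with points for arrays and lines for group means: Pax5 leukemia with low Trim12a (n = 3), with high Trim12a (n = 3), Bank1/Pax5 leukemia (n = 6) and WT (n = 4). In all 8 genes the low and high Pax5 arrays do not overlap, and for Trim12a and Trim30d alone among these 8 do all Bank1/Pax5 and WT arrays lie with the high class.

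Beyond the TRIM genes, separation near Trim12a on chromosome 7 was patchy. Classes are called separated here where all 3 low arrays lie above, or all 3 below, the 3 high arrays, which 9.18% of all tested genes did (1830 of 19937). Of the 10 tested genes on either side of Trim12a, 5 of 20 were separated (25%), 2 of them higher and 3 lower in the low class. They were Trim34a, Trim30d, Ubqln5, Olfr648 and the pseudogene Trim30e-ps1. The last 3 were dim on all arrays and differed by 0.21, -0.05 and -0.10. Of the 5, only Trim34a and Trim30d held signal above the median of named probe sets, Trim30d on the high arrays 2 and 6 alone. With 20 tested genes on either side the count stayed at 5, now of 40 (12.5%). None of these genes passed the test. Of the 20, Trim34a, Trim30d, Trim12c and Ubqln5 had an unadjusted p under 0.05 in limma, as did 5.08% of all genes. Without array 4 the count among the nearest 20 rose to 10, and without array 6 to 8, while the share over all genes rose to 27% and 13.9%.

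Many genes around Trim12a are olfactory receptors without signal in bone marrow, so the same count was made over measurable genes, those reaching the median of named probe sets on at least 1 of the 6 arrays. Of the 20 such genes on either side, 6 of 40 were separated (15%), against 9.35% of all 10893 measurable genes. Trim34a and Trim68 were higher in the low class, and Trim30d, Rnf121, Gm4759 and Gm1966 were lower. Rnf121, a ubiquitin ligase of internal membranes, differed by -0.28 with a gap of 0.07. The others overlapped between the classes, among them the cyclic nucleotide phosphodiesterase Pde2a (-2.13, SE 1.00), Trim12c (0.58), the caveolar protein gene Cavin3 (-0.41) and the folate receptor gene Folr2 (-0.43).

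**Figure D2:**
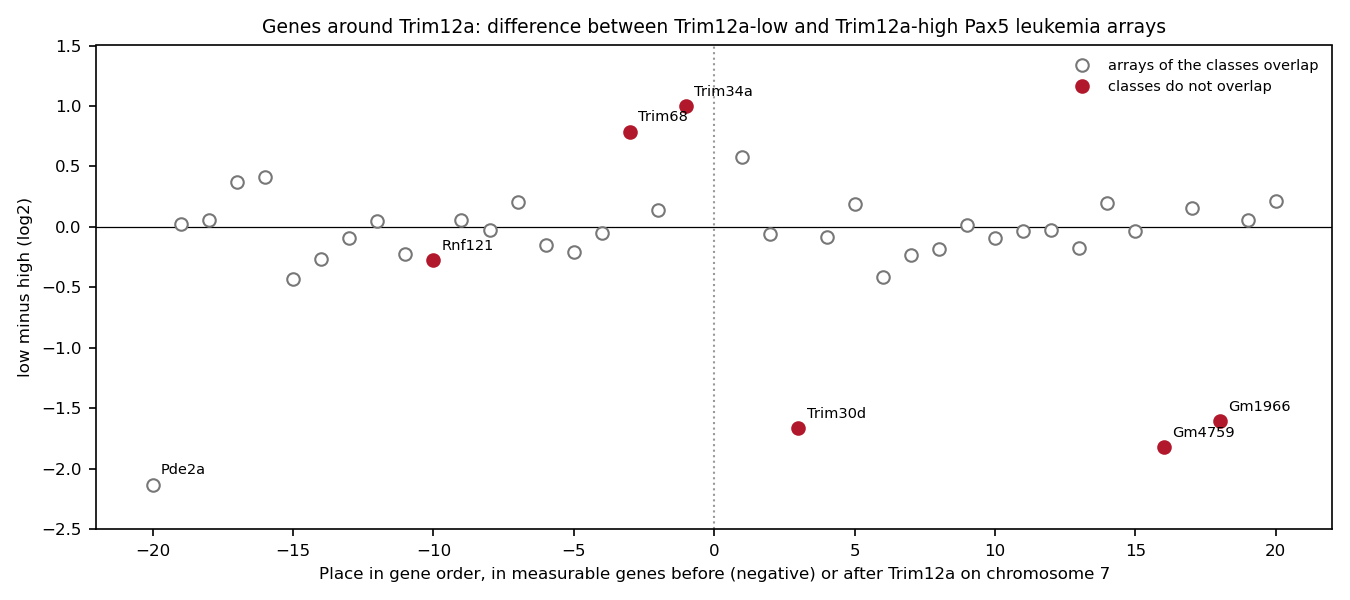
Difference between low and high Pax5 leukemia arrays (y axis, low minus high, log2) for the 20 measurable genes before and after Trim12a in gene order on chromosome 7 (x axis). Filled points mark the 6 of 40 genes whose classes do not overlap; the others overlap, and both directions occur close to Trim12a.

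The widest separation on chromosome 7 after Trim12a came from Gm4759 and Gm1966, which lie beyond a block of olfactory receptor genes. Both were picked out after their values were seen. RefSeq lists Gm4759 as a transcribed pseudogene and Gm1966 as protein-coding, and the array's annotation also names Gm1966 in probe sets of Gvin1, a very large GTPase inducible by interferon. Gm4759 read 9.12, 8.97 and 8.65 on the low arrays 1, 3 and 5 and 10.63, 11.10 and 10.48 on the high arrays 2, 4 and 6. The difference was -1.82, 3.53-fold (SE 0.20), with a gap of 1.36 and an adjusted p of 0.718. Gm1966 read 8.15, 7.47 and 7.91 on the low arrays against 9.41, 9.84 and 9.10 on the high arrays, a difference of -1.61 (SE 0.25, adjusted p = 0.956). Neither gene overlapped between the classes, and each low array was bright enough to be above the median of named probe sets.

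In gene order, 54 tested genes lay between Trim12a and Gm4759, of which 32 were olfactory receptors and 15 measurable, and 1 lay between Gm4759 and Gm1966. That 1 gene, Gm8995, overlapped between the classes, with means of 11.15 in the low class and 11.00 in the high class. The 3 probe sets naming Gvin1 together with its copies overlapped too, with low means of 9.78, 9.88 and 10.36 against high means of 10.03, 10.35 and 10.64. For Gm4759, all 4 WT arrays (10.96 to 11.29) and 4 of the 6 Bank1/Pax5 arrays lay on the high side of the midpoint. For Gm1966 this held for all 4 WT arrays and 5 of the 6 Bank1/Pax5 arrays, array 2 of that group reading 7.15. Both genes have relatives of like sequence nearby, so their values may hold RNA of copies, and this was not tested.

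Across the genome the clearest difference lay on another chromosome. Ccnb1ip1, on chromosome 14, was the single gene of 19937 that passed the test (0.00502% of genes), and it was lower in the low class. It encodes a RING protein, also named HEI10, that is needed for crossovers in meiosis and was found as a partner of cyclin B1. It read 5.76, 5.71 and 5.56 on the low arrays 1, 3 and 5 and 8.72, 8.23 and 8.60 on the high arrays 2, 4 and 6. The difference was -2.84, or 7.16-fold (SE 0.15, n = 3 and 3), with an adjusted p of 0.0378 in limma. Because the low arrays were dim, the size of this fold is not well bounded.

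Outside Pax5 leukemia Ccnb1ip1 did not follow Trim12a. All 4 WT arrays, whose Trim12a read 10.07 to 10.26, held 5.53 to 5.75 of Ccnb1ip1 and lay with the low class. The 6 Bank1/Pax5 arrays spread from 5.51 to 8.80 with a median of 7.20, and 3 of them lay on the high side of the midpoint. The call rested on all arrays but one. It was lost without array 1 (adjusted p = 0.161), array 2 (0.288), array 3 (0.241), array 5 (0.256) or array 6 (0.253), by limma with the same adjustment, and was kept without array 4 (0.0287), although the difference itself stayed between -2.98 and -2.74. Without array 4, Mme, the CD10 peptidase of B cell precursors (-1.90, adjusted p = 0.0416), and Rpgr, a regulator of cilia (-2.05, adjusted p = 0.0392), passed as well.

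Pnp, which encodes the purine salvage enzyme purine nucleoside phosphorylase, lay on the same chromosome with 6 tested genes between it and Ccnb1ip1, and was taken up after its values were seen. It read 10.54, 11.06 and 11.00 on the low arrays and 11.95, 11.58 and 11.90 on the high arrays, which did not overlap. The difference was -0.94 (SE 0.18, adjusted p = 0.956), with a gap of 0.52. The probe set that names both Pnp2 and Pnp was lower in the low class by 0.26 at the gap, with means of 11.79 and 12.45. As with Ccnb1ip1, all 4 WT arrays (9.12 to 9.53) lay with the low class. Of the 10 tested genes on either side of Ccnb1ip1, 2 of 20 were separated (10%), 1 in each direction, and Pnp was one of them. Among measurable genes it was 3 of 20 (15%) on 10 places to either side and 5 of 40 (12.5%) on 20, against 9.35% of all measurable genes. Osgep, a tRNA-modifying enzyme that lies between the pair, differed by -0.53 and overlapped between the classes. Just past Pnp, the ribonuclease family genes Rnase9 (-0.51) and Rnase11 (-1.30) had an unadjusted p under 0.05 in limma and also overlapped, and the former was dim.

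Apart from Ccnb1ip1, the fit gave no call, the next smallest adjusted p being 0.718. Before adjustment, 1012 genes (5.08%) had p under 0.05. In all, 1112 genes (5.58%) were higher and 718 (3.6%) lower in the low class without overlap, and 125 of the 329 genes that differed at least 2-fold were separated. A gap of at least 1 log2 was reached by 6 genes (0.0301%), all lower in the low class. Besides Ccnb1ip1 and Gm4759 these were Myl10, Trem1, Prelid2 and Dlx1. This count rises whenever an array is left out, to 96 without array 1, 12 without array 2, 16 without array 3, 79 without array 4, 24 without array 5 and 16 without array 6.

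Myl10, a myosin light chain also known from precursor lymphocytes, had the widest gap after Ccnb1ip1, 1.55. It read 8.53, 6.84 and 8.40 on arrays 1, 3 and 5 against 10.23, 10.43 and 10.08 on arrays 2, 4 and 6, a difference of -2.32 (SE 0.46, adjusted p = 0.956). Trem1, a receptor of myeloid cells that amplifies inflammation, read 8.53, 8.80 and 8.93 in the low class and 10.49, 10.10 and 10.05 in the high class. Its difference was -1.46 (SE 0.16, adjusted p = 0.718). Prelid2, which belongs to a family of mitochondrial lipid transfer proteins, differed by -2.14 (SE 0.37), and the homeobox gene Dlx1 by -2.15 (SE 0.47). For all 4 of these genes the WT arrays lay with the low class, which is the reverse of their Trim12a level. All 4 WT arrays lay on that side for 8718 of the 19937 tested genes. Unlike the Pax5 leukemia arrays, the WT arrays do not hold total marrow, and the part of this in their levels was not tested.

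In the other direction, Hvcn1 showed the widest separation, with a gap of 0.96. It encodes the voltage-gated proton channel of B cells and phagocytes. It read 10.46, 10.65 and 10.55 on the low arrays and 9.05, 9.49 and 9.02 on the high arrays, a difference of 1.37 (SE 0.15, adjusted p = 0.718). Just under the 1 log2 mark among genes lower in the low class were Jun, a subunit of the AP-1 transcription factor (-1.63, gap 0.97), Gm1966 (gap 0.95) and the potassium channel gene Kcnk5 (-1.39, gap 0.94). Lowering the mark to 0.5 log2 gave 42 genes (0.211%), of which 31 were lower and 11 higher in the low class. Among them were the Ras activator Rasgrp1 (-2.73), the signalling adaptor Traf5 (-0.96) and the cystatin Cst7 (1.24). None of these had an adjusted p under the threshold of 0.05.

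The 6 genes with a gap of at least 1 log2 lay apart from each other, while some of those with a gap of at least 0.5 lay in pairs. The 6 were spread over chromosomes 2, 5, 7, 14, 17 and 18, and none had another of the 6 among the 10 tested genes on either side. Of the 42 genes with a gap of at least 0.5, 2 had another within 5 tested genes (4.76%), where 2.04% of all placed genes lay that near to one of them. Within 10 tested genes it was 6 of 42 (14.3%, against 4.02%). Counted over measurable genes, the shares were 4 of 42 within 5 (9.52%, against 3.7%) and 6 of 42 within 10 (14.3%, against 7.15%). These 6 made up 3 pairs, Gm4759 with Gm1966, Ccnb1ip1 with Pnp, and on chromosome 18 Arhgap26, a regulator of the small GTPase RhoA, with Prelid2. Both genes of each pair were lower in the low class. With 1 gene kept of neighbours whose symbols share a stem, 4 of 41 remained within 10 genes (9.76%, against 4.00%) and none within 5 (against 2.02%). This drops 1 of the first pair through the shared letters Gm alone, which does not show that the 2 genes are copies.

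Genes that merely did not overlap were spread as all genes are. Of the 1827 placed ones, 18.6% had another on the next place to either side and 62.5% within 5 places, against 17.5% and 61.7% of all placed genes. By chromosome the separated share ran from 7.56% on chromosome 19 to 10.7% on chromosome 4 among the autosomes, and it was 9.52% on chromosome 7. Gene order is that of RefSeq on GRCm38.p6. The arrays carry no genotypes, so whether any mice shared a haplotype was not tested.

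**Figure D3:**
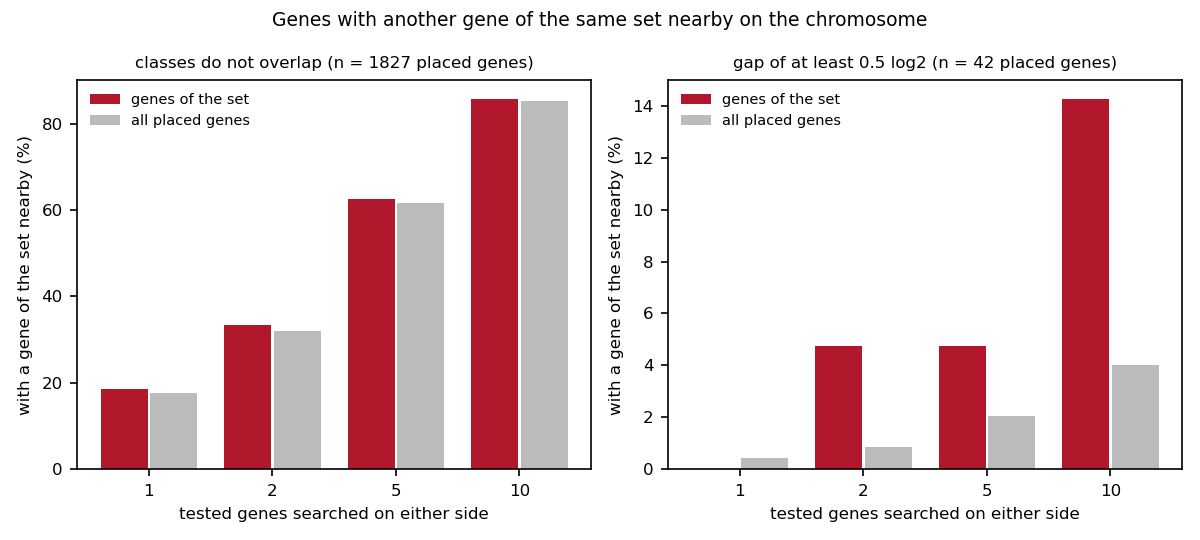
Share of genes with another gene of the same set among the 1, 2, 5 or 10 tested genes on either side (x axes), in percent (y axes, starting at 0), for the 1827 placed genes whose classes do not overlap (left) and the 42 with a gap of at least 0.5 log2 (right). Grey bars give the same share for all placed genes; the bars are nearly equal on the left, and on the right the red bar at 10 genes is 14.3% against 4.02%.

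The arrays outside Pax5 leukemia did not follow the split. All 10 of them had Trim12a over the threshold. Of the 6 genes with a gap of at least 1 log2, none had all 6 Bank1/Pax5 arrays on the high side, 1 (Gm4759) had all 4 WT arrays there, and the other 5 had all 4 WT arrays on the low side. Over all tested genes, 8.69% had all 6 Bank1/Pax5 arrays and 27.8% all 4 WT arrays on the high side. All 4 WT arrays lay on the low side for 8718 of the 19937 tested genes. Of the 42 genes with a gap of at least 0.5, 1 had all 6 Bank1/Pax5 arrays on the high side (Nrg4, a growth factor of the EGF family). For 15 of the 42, all 4 WT arrays lay on the high side, and for 25 on the low side. By contrast, 4 of the 6 separated measurable genes around Trim12a had all 4 WT arrays with the high class. The WT samples are described as pro-B and pre-B cells, not as total marrow, and are not leukemic. Their position may thus follow the kind of sample as well as the strain, and these cannot be told apart.

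Genes known to vary between inbred strains gave no call. Of 31 measured, 3 were higher and 2 lower in the low class without overlap, with a median of 0.06 log2, and 6 had an unadjusted p under 0.05 in limma. Over all genes, 5.58% were higher and 3.6% lower without overlap, and 5.08% had such a p. Entpd4, a nucleotide hydrolase of the Golgi and lysosome, read 10.22, 10.33 and 10.40 in the low class against 10.07, 10.08 and 9.75 in the high class (0.35, SE 0.11). Alad, the heme synthesis enzyme whose copy number differs between strains, differed by 0.55 (SE 0.20) with a gap of 0.02. Nnt, the mitochondrial transhydrogenase that C57BL/6J mice lack, read 10.01, 9.69 and 9.60 in the low class and 8.98, 9.41 and 9.46 in the high class (0.48, SE 0.17). It was well above the median of named probe sets on all 6 arrays, but which allele of Nnt the mice carried was not measured. The lower ones were Ide, the insulin-degrading enzyme (-0.49, SE 0.15), and the dim Casp12 (-0.83). The beta-globin genes, another copy-variable cluster on chromosome 7, held 3 measured genes, all dim, of which the embryonic Hbb-bh1 was separated by 0.01. Nnt was named after its values were seen.

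B cell genes had negative median differences, with wide spread and no call. Of 16 measured genes that Pax5 activates, 2 were lower and none higher without overlap, with a median of -0.62. These were Id3, an inhibitor of E-protein transcription factors (-1.13, SE 0.42), and Siglecg, an inhibitory receptor of B cells (-0.96, SE 0.28). Of 19 genes of the pro-B and pre-B stages, 1 was lower (Bst1, a surface enzyme of early lymphocytes, -2.07, SE 0.76) and none higher, with a median of -0.81. The surrogate light chain gene Vpreb1 read 9.24, 7.36 and 6.18 on the low arrays and 9.75, 9.23 and 10.54 on the high arrays. Blnk, the adaptor of pre-B cell receptor signalling, read 9.81, 6.23 and 7.52 against 11.28, 9.66 and 11.13. In each of these lists 3 genes had an unadjusted p under 0.05 in limma, as did 5.08% of all genes, of which 3.6% were lower and 5.58% higher without overlap. In Vpreb1 and Blnk array 1 lay near the high class, and arrays 3 and 5 were far under it.

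Array 3 also stood apart in Pax5 itself, which read 7.52 there against 11.14 to 12.21 on the other 5 arrays. Its low-class mates read 12.21 and 11.82 and the high class 11.25, 11.96 and 11.14, so Pax5 overlapped between the classes. Bank1, a scaffold protein of B cell receptor signalling, overlapped as well, with 8.80, 9.94 and 10.63 in the low class and 11.09, 10.55 and 10.04 in the high class. On array 3 Vpreb3, another surrogate light chain partner, read 7.28 and the early lymphocyte enzyme gene Dntt 5.08, against 11.90 and 7.70 on array 1. The part of array 3's low Pax5 in the lower levels of B cell genes was not tested. In bulk samples, fewer cells of a type and less RNA per cell cannot be told apart.

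Interferon response genes overlapped between the classes. None of 28 measured ones was separated, called or at an unadjusted p under 0.05 in limma, and their median difference was -0.40. Gbp3, an interferon-induced GTPase, read 7.81, 7.86 and 8.07 in the low class and 10.05, 7.92 and 10.56 in the high class, where array 4 lay with the low arrays. Irgm1, a GTPase that targets vacuoles with microbes, read 10.14, 8.56 and 8.87 against 10.37, 9.42 and 10.27. Arrays 2 and 6 were thus highest in both genes, and array 1 came next in Irgm1. Among 25 cell cycle genes 1 was separated, the replication licensing factor Cdc6, at -0.36 (SE 0.11), and the median of the list was -0.15. Without overlap, 5.58% of all genes were higher and 3.6% lower in the low class, so the cell cycle count was near the general share. An unadjusted p under 0.05 in limma was reached by 5.08% of all genes.

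Markers of stroma and vessels had the most separated members of the 16 gene lists examined, all lower in the low class. Of 13 measured markers, 6 were lower without overlap and none was higher, against 3.6% of all genes lower in this way, and none was called. They were the bone matrix collagens Col1a1 (-1.15) and Col1a2 (-1.28), the matrix proteins Sparc (-0.96) and Igfbp7 (-1.09), the niche chemokine Cxcl12 (-1.13) and the endothelial cadherin Cdh5 (-0.73). An unadjusted p under 0.05 in limma was reached by 6 of the 13, and by 5.08% of all genes. The median difference of the list was -0.76. Sparc read 10.56, 9.89 and 10.79 on the low arrays and 11.72, 11.29 and 11.11 on the high arrays. Igfbp7 read 10.63, 9.86 and 10.88 against 11.88, 11.50 and 11.27. Per array, the list's mean level was 8.32 to 8.76 in the low class and 9.13 to 9.45 in the high class. In WT, described as pro-B and pre-B cells and not as total marrow, it was 6.81 to 6.94. Neither the 2 classes nor WT overlapped. Leaving out arrays 1 to 6 in turn gave 6 to 9 separated markers, while the share of all genes lower in this way rose from 3.6% to between 5.32% and 9.99%.

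Further genes of bone and stromal cells stood among the 42 with a gap of at least 0.5, and were named for that after their values were seen. Ibsp, bone sialoprotein, read 8.11, 7.37 and 7.42 in the low class and 11.11, 9.02 and 8.83 in the high class (-2.02, SE 0.64). Pcolce, which helps to process collagen, differed by -1.50 (SE 0.31), the cadherin Cdh11 by -1.36 (SE 0.29), the oncostatin M receptor Osmr by -1.36 (SE 0.21) and Kitl, the niche factor that feeds precursors through Kit, by -1.10 (SE 0.21). All 5 were lower still in WT than the mean of the low class. The WT samples are described as pro-B and pre-B cells and not as total marrow, so the kind of sample and leukemia cannot be told apart there. The part of stromal RNA in the split was not tested.

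**Figure D4:**
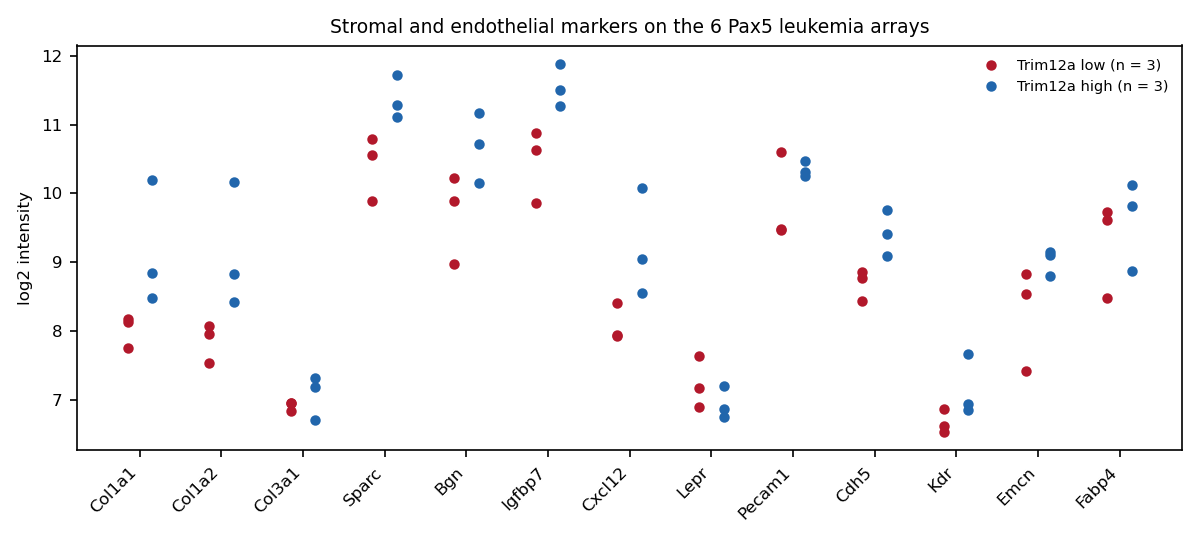
Log2 intensity (y axis) of the 13 measured stromal and endothelial markers (x axis) on the 3 low and the 3 high Pax5 leukemia arrays, 1 point per array. In 6 markers (Col1a1, Col1a2, Sparc, Igfbp7, Cxcl12 and Cdh5) all low points lie under all high points; in the others the classes overlap.

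Apart from the plasma cell list, markers of other blood cells did not separate the classes as whole lists. None of 16 neutrophil markers was separated, and they varied widely within each class. The list's mean level per array was 7.25 to 11.50 in the low class and 7.59 to 11.11 in the high class. Elane, neutrophil elastase, read 7.65, 11.39 and 9.12 in the low class and 7.21, 7.40 and 11.07 in the high class, highest on arrays 3 and 6. No megakaryocyte marker (of 7) was separated, and the list's mean level overlapped between the classes. No plasma cell marker (of 8) was separated either. The list's mean level, however, was 8.36 to 8.72 in the low class and 8.85 to 9.07 in the high class, without overlap. Of 17 monocyte and macrophage markers, the chemokine receptor Ccr2 was higher (1.49, SE 0.49) and the adhesion molecule Vcam1 lower (-0.62, SE 0.22) in the low class. Of 11 T cell markers, Cd5 (0.66) and the dim Cd3d (0.37) were higher, of 10 erythroid markers the dim Hemgn (0.67), and of 10 NK cell markers the dim Prf1 (0.23). None of these was called, and the range of the mean level overlapped between the classes in each of these 4 lists. Over all genes, 5.58% were higher and 3.6% lower in the low class without overlap.

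The classes were also unequal in sex-linked expression. Array 2, of the high class, read 9.96 for Xist, the RNA that silences an X chromosome in females, and 4.59 for the Y-linked Eif2s3y. The other 5 arrays read 5.82 to 5.99 for Xist and 9.42 to 9.80 for Eif2s3y. The high class thus held 1 array with a female pattern and 2 with a male one, and the low class 3 with a male one. The sex-linked genes overlapped between the classes, and no gene with a gap of at least 0.5 log2 lay on X or Y.

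By all genes the classes were not set apart. Pearson correlations over all genes were 0.958 to 0.977 between low arrays, 0.975 to 0.981 between high arrays and 0.958 to 0.982 between a low and a high array. With 3 arrays against 3, an exact permutation test of a single value cannot give a two-sided p under 0.1, so none was run.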

How the data were processed

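Biotin-labelled total RNA was measured on 16 mouse arrays. Per the submitters' processing notes, the authors used RMA through oligo, with no versions stated, and the deposited values, on the log2 scale, were taken as they stand. Medians per array were 6.58 to 6.71 log2, and precision is limited by how few arrays there are. Of 35556 probe sets, 21789 named 1 gene, 1621 several and 12146 none in the platform's annotation, and only the first were tested. Gene symbols were updated through their records except for 91 probe sets. Where several probe sets named a gene (999 genes), that of the highest mean stood for it, leaving 19938 genes, of which 19854 could be placed in RefSeq's gene order. A single probe set names Trim12a alone, so the split was not repeated with another.

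The 6 Pax5 arrays were fitted with limma 3.58.1 in R 4.3.3 (lmFit, eBayes), low minus high, two-sided, with Benjamini-Hochberg adjustment over 19937 genes, Trim12a left out. A gene was called under 0.05. Gaps, neighbours and gene lists were counted without a test. The procedure was tested on simulated data. The classes, members and lists were chosen with earlier results of these data known. Named by rule were Trim12a, the 10 tested genes on either side and the TRIM cluster, called genes, up to 4 members of each list with the smallest p, Bank1, Pax5 and sex-linked genes. Genes named for their gap, Gm4759, Gm1966, Pnp, Hvcn1, Nnt and genes named for separation within a list were chosen after their values were seen. Alternatives were a filter on dim genes, mean probe sets, median centring, cyclic loess, trended robust moderation, array weights, all 16 arrays, covariates of Y-linked genes and of other cells' markers, a 2-fold minimum, other gaps and windows, and leaving out each array.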

Additional observations from a re-analysis of the deposited data

Results flagged for a closer look

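In 5 of 60 sets checked (20 genes in each of the 2 leukemia groups of 6 arrays and the WT group of 4), 1 array lay far from the rest of its group. By the 95% limit of Dixon's test, chance sets apart about 1 in 20 such sets. In Pax5 leukemia, Pax5 read 7.522 on array 3, the nearest other array being at 11.14. Array 2 of this group, in the high class, was highest in Xist at 9.96 (the next at 5.99) and lowest in the Y-linked Eif2s3y at 4.595 (the next at 9.42). In Bank1/Pax5 leukemia, Trim12a was highest on array 6 at 10.65 (the next at 9.53), and Gm1966 was lowest on array 2 at 7.153 (the next at 9.92).

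A pair of probe sets that name several T cell receptor gamma variable segments, and so entered no test, separated the classes by gaps of 2.294 and 2.289 log2. The first had means of 7.90 in the low class and 11.11 in the high class and at most 7.73 in WT. The second had means of 6.92 and 10.23 and at most 7.21 in WT. The Bank1/Pax5 arrays spread over 6.95 to 12.97 and 6.43 to 12.15. These segments encode part of a receptor of gamma delta T cells. Gaps this wide were reached by 1 of 19937 tested genes. The list of 11 T cell markers did not go the same way. In it, 2 markers were higher and none lower in the low class without overlap, against 5.58% and 3.6% of all genes. The median difference of that list was 0.14, and which cells held the segments' RNA was not tested.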

How the results depend on the processing

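The count of called genes, 1, became 0 with cyclic loess (1032 genes at an unadjusted p under 0.05 in limma), all 16 arrays in the fit (1240), a Y-linked covariate (718) or a covariate of other cells' markers (1062), and ranged from 0 to 3 when an array was left out (562 to 1777 at an unadjusted p under 0.05). Ccnb1ip1 kept its sign in all 15 alternatives, with limma's adjusted p from 0.00651 to 0.403. It missed the threshold with cyclic loess (-2.88, adjusted p = 0.0743), all 16 arrays (-2.84, 0.403), the Y-linked covariate (-2.73, 0.278), the other-cell covariate (-2.84, 0.327) and in 5 of 6 fits without an array, which ranged from -2.98 to -2.74. Fewer arrays, or fewer degrees of freedom, enter the covariate and leave-one-out fits. Otherwise the cause was not tested. The Y-linked mean was 4.75 on array 2 and 8.89 to 9.13 on the other arrays. The Y-linked fit is therefore close to the fit without array 2 and is not a separate check. Genes with a gap of at least 1 log2 numbered 42 at a mark of 0.5 and 1 at a mark of 2, and 12 to 96 without an array, where fewer values have to be apart. Trim30a turned positive with the Y-linked covariate (0.10) and ranged from -0.42 to 0.25 without an array, and Trim21 from -0.20 to 0.035. The other named differences listed for Trim34a, Trim30d, Trim68, Trim12c, Gm4759, Gm1966, Pnp, Trem1, Prelid2, Dlx1, Myl10 and Hvcn1 kept their sign in their 15 alternatives and stayed uncalled. With 1 called gene or none in most fits, no called gene could have a called neighbour, so that count (0 in all 10 alternatives) says nothing about stability. Alternatives added after the data were seen were the counts around Trim12a and of stromal markers under other scalings and without an array, and the neighbour counts for other gene sets. No paired analysis was possible because the low and high arrays are different mice of one group and share no replicate number. The low arrays were dim in Trim12a, Trim30d and Ccnb1ip1, and array 4 of the high class was dim in Trim30d, which limits what the sizes there can show.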

Other observations

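Probe sets left out of the tests held few wide separations. Of the 1621 that name several genes, 107 (6.6%) did not overlap between the classes, and 3 had a gap of at least 1 log2. The third, beside the T cell receptor gamma pair, names immunoglobulin heavy chain segments. It read 5.42, 6.27 and 6.13 on the low arrays 1, 3 and 5 and 7.67, 7.93 and 8.78 on the high arrays 2, 4 and 6, with a gap of 1.40. WT arrays read 9.60 to 9.94 there and Bank1/Pax5 arrays 4.99 to 10.55. Of the 12146 probe sets that name no gene, 916 (7.54%) did not overlap and none had a gap of at least 1 log2.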
